A study of Homo sapiens with 12 samples.

Results

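U937 cells that carried GFP alone were compared at 9 h and at 6 h after transfection, on 4 of the 12 arrays of the series. U937 is an established human cell line with monocytic features that was derived from a histiocytic lymphoma. The cells had been electroporated with the plasmid pEGFP, and GFP-positive cells had been sorted at each time before RNA was made. The members are the arrays whose titles name control GFP, 2 at 9 h and 2 at 6 h, numbered 1 and 2 in the titles. The other 8 arrays are from U937 cells that received pEGFP-PRWT or pEGFP-PR2VR, 2 plasmids for PML-RARA, the fusion protein of acute promyelocytic leukemia, at the same 2 times. PRWT is the wild-type fusion, and the labels call PR2VR wild type too. Hours are counted from transfection in the GFP titles and from infection in the fusion titles. All groups share the cell line, the electroporation and the sort, and none of the 12 arrays is from cells without electroporation or from a time before 6 h. The comparison therefore describes the GFP control cells between 6 h and 9 h, and cannot tell the plasmid, the electric pulse and the sort apart. The labels do not say whether the numbered arrays came from separate transfections, so the spread between them may be technical.

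As background, DNA delivered into the cytosol can be sensed by receptors that start interferon production. Interferon then acts through STAT and IRF factors on interferon-stimulated genes, which encode antiviral proteins. Immediate early genes respond quickly to a stimulus. Many of them encode transcription factors, and their RNA is often short-lived. Genes of cholesterol synthesis are under the control of SREBP factors, which are held back when sterol is plentiful or when INSIG1 protein binds their escort.

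The values are MAS5 signals on a linear scale, which the authors had scaled to a common level per array. Differences are on the scale log2(signal + 62.5), 9 h minus 6 h, with the standard error (SE) of a limma fit over all 12 arrays. This scale understates the differences of genes with low signal. Each of 13959 tested genes is represented by its probe set with the highest mean.

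The arrays were examined first. RARA, the retinoic acid receptor gene carried by the fusion, read between 48.2 and 309.2 on the 4 GFP arrays and between 9281.2 and 58985 on the 8 fusion arrays. The array of GFP cells at 9 h with number 2 stood apart from the other 3. Its correlation with them, over the log2 values of the tested genes, was between 0.896 and 0.911, whereas the other 3 correlated with each other at 0.943 to 0.955. The 21 control probe sets for the bacterial Lys, Phe, Thr and Trpn transcripts had a median signal of 31413.8 on that array. On the other 3 GFP arrays the median was 42.8, 66.5 and 49.8. The 2 fusion arrays of 9 h number 2 had the same feature, with medians of 32219.5 and 15760.8, and the 9 arrays of other sets had medians between 25.3 and 66.5. The human genome has no such transcripts, so this signal separates 3 arrays from 9 without the use of any human gene, and the labels do not mention it. The 24 other bacterial control probe sets, for BioB, BioC, BioD, Cre and Dap, read between 4.4 and 477.4 on the 4 GFP arrays. Their highest signal was 169.2 and 201.7 on the 6 h arrays, 302.9 on 9 h number 1 and 477.4 on 9 h number 2. A signal between 4.4 and 477.4 on any of the 4 arrays is called background below. It can thus exceed all such controls on its own array.

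The ratio of the GAPDH 3′ to 5′ control signals, a measure of how complete the labelled RNA was, was 5.27 and 4.79 on the 6 h arrays and 12.4 and 2.75 on the 9 h arrays. The 6 h arrays thus lay between the 9 h arrays, and the ratio did not separate the times. The median signal did separate them: it was 244.7 and 266.9 at 6 h, and 291.1 and 435.8 at 9 h. Because 1 of the 2 arrays at 9 h belongs to the set with bacterial signal, the median of number 1 alone against the 6 h arrays is given beside the median of each gene group below. That comparison stays within the arrays without bacterial signal. It sets the GFP array with the highest GAPDH ratio, 12.4, against arrays with 5.27 and 4.79. Time and the ratio cannot be told apart in it.

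**Figure D1:**
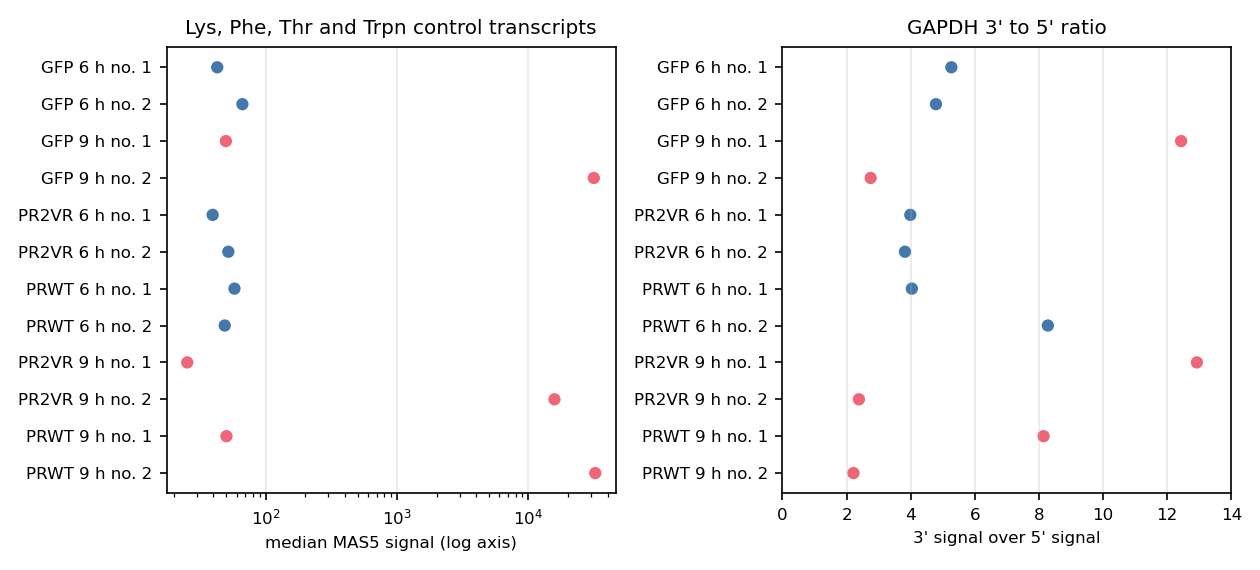
Left, the median MAS5 signal of the 21 control probe sets for Lys, Phe, Thr and Trpn on each of the 12 arrays (log axis). Right, the GAPDH 3′ to 5′ signal ratio on the same arrays. Blue points are 6 h and red points are 9 h. The 3 arrays of 9 h number 2 have medians of 15760.8 to 32219.5 and ratios of 2.21 to 2.75, and the other 9 have medians of 25.3 to 66.5 and ratios of 3.82 to 12.9.

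Of the 13959 genes, 3519 (25.2%) read higher on both 9 h arrays than on both 6 h arrays, and 1758 (12.6%) read lower on both. These are the genes whose ranges do not overlap, and they are called separated genes below. None passed the limma test at a Benjamini-Hochberg adjusted p of 0.05 (0%, smallest adjusted p = 0.828). At an unadjusted p under 0.05 there were 677 genes, 510 higher and 167 lower, where 5% of the genes tested is 698. With 2 arrays against 2, the smallest p that an exact permutation test of 1 gene can give is 0.333. Separation is therefore a description of these 4 arrays and not a test. Fewer arrays separate more genes: 5780 higher and 3388 lower without number 1 of 6 h, and 5540 and 3756 without number 2 of 6 h. The counts were 6589 and 4240 without number 1 of 9 h, and 5503 and 3673 without number 2 of 9 h. The median log2 difference over all genes was 0.15 without number 1 of 6 h and 0.12 without number 2 of 6 h. It was 0.20 without number 1 of 9 h and 0.10 without number 2 of 9 h.

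The direction of the separated genes depended on scale and on signal. The median difference over all tested genes was 0.14 (log2), so group medians below are to be read against 0.14. When each array was centred on its own median over the tested genes, 2401 genes (17.2%) were higher and 2803 (20.1%) lower, so the share of higher genes among those separated went from 66.7% to 46.1%. Quantile normalization gave 2755 higher and 2161 lower, a share of 56%. Among the 4653 genes with the lowest mean signal, between 168.9 and 599.8, 35.7% were higher and 5.48% lower. Among the 4653 with the highest, above a mean of 3496, 12.7% were higher and 21% lower. With centred arrays these shares were 27.3% and 8.6% in the lowest class, and 6.71% and 33.6% in the highest. Low-signal genes were thus more often higher, and high-signal genes more often lower, on either scale.

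**Figure D2:**
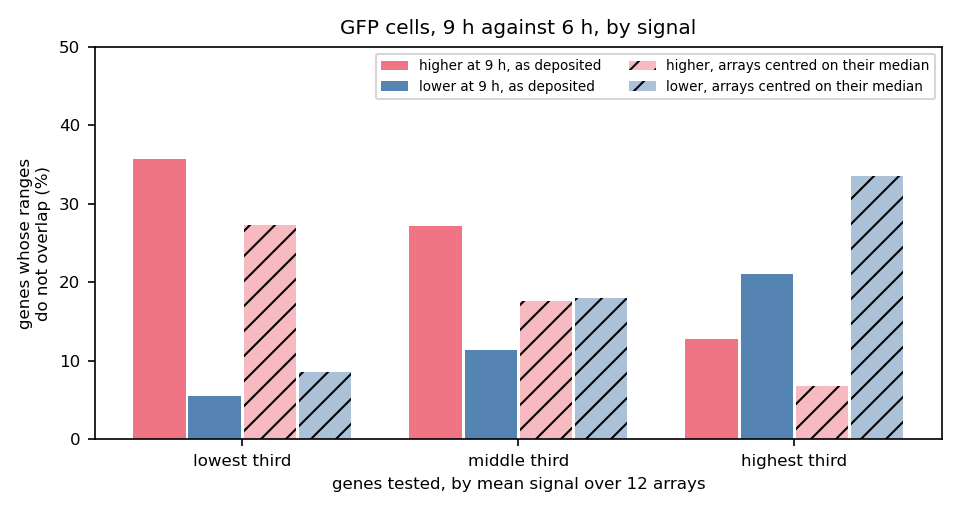
Share of tested genes whose 6 h and 9 h ranges do not overlap in GFP cells (y axis, percent), in 3 classes of mean signal over the 12 arrays (4653 genes each). Red is higher and blue lower at 9 h, and hatched bars are after centring each array on its median. In the lowest class higher genes outnumber lower ones (35.7% against 5.48%), and in the highest class they do not (12.7% against 21%).

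The 15 genes with the widest distance between the nearest arrays of the 2 times (the gap, in log2) on the higher side were led by ZBTB32, a zinc finger repressor of lymphoid and myeloid cells. ZBTB32 read 925.4 and 1048.4 at 6 h, and 6313.2 and 10452.6 at 9 h. Its difference was 2.97 ± 0.55 (SE, 2 arrays against 2) with an adjusted p of 0.828 by limma, and its gap was 2.52. The fusion arrays, which are other samples, gave 2.57 in PRWT and 2.66 in PR2VR cells. ZBTB32 was also the 1 gene among these 15 whose 6 h signals were not both within background. The other 14 were at background on both 6 h arrays. They were IFI27, C1RL, SLC5A1, MYF6, GRPR, ADCYAP1R1, ZAN, LMNTD1, C22orf23, FAM238B, LINC01723, LOC101927377, ADARB2-AS1 and FZD4-DT. Of the 15, only ZBTB32 and IFI27 also separated in the same direction when the 4 fusion arrays at 9 h were set against the 4 at 6 h.

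On the lower side the widest gap was that of ATP2B3, a calcium pump of the plasma membrane, which read 1708.3 and 2173.8 at 6 h and 417.9 and 326.9 at 9 h. The difference was -2.20 ± 0.55. Its probe set is of the type (_x_at) that may also match other transcripts. HMGCS1, the synthase that makes HMG-CoA for sterol synthesis, came next with 8488.8 and 10830.4 against 2447 and 1574, a difference of -2.25 ± 0.58. The others were ZNF251, NPAS1, NECAB2, KLKB1, GJC1, SLC6A13, SLC52A3, TRABD, ZNF451, CHKA, TSC22D3, RFX3 and INHBE, and 9 of the 15 were at background on both 9 h arrays. Of the 15 lower genes, 5 also separated downward in the fusion cells, namely ZNF251, NPAS1, ZNF451, TSC22D3 and RFX3. The adjusted p of these 15 was 0.941 by limma.

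Since so many of these genes reached background at one time, the widest gaps were also taken among the 8184 genes with a mean log2 value of at least 10, a signal of 961.5. This selection was made after the values were seen. In it 18% were higher and 17.2% lower. The 20 widest gaps per direction were at least 1.15 upward and 1.02 downward, and adjusted p ran from 0.828 to 0.941.

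PRDM1, which encodes the repressor Blimp-1, read 2340.5 and 2342.1 at 6 h and 7839.7 and 9512.3 at 9 h. Its difference was 1.86 ± 0.41. The 6 h arrays almost coincided, and both 9 h arrays were more than 3 times as high. DCP1B, a subunit of the RNA decapping complex, read 3239.1 and 3211 against 10273.8 and 12651.5, a difference of 1.80 ± 0.45. MOV10, an RNA helicase with antiviral activity, read 888.1 and 979.9 against 2944.4 and 3745.2, a difference of 1.77 ± 0.40. CRLF2, the receptor chain for thymic stromal lymphopoietin, read 834 and 1473.4 against 4179.3 and 4582.2. Each of these 4 genes had its 6 h arrays closer together than the distance between the times. DHRS9, a short-chain dehydrogenase that acts on retinol, read 16650.8 and 16604.4 at 6 h and 40168.8 and 48793.4 at 9 h. MS4A4A, a surface protein of macrophages, read 2671.7 and 4724.3 against 10641.2 and 29777.3, and the 2 arrays at 9 h differed more than those at 6 h. BMF, a BH3-only protein that promotes apoptosis, read 746.2 and 827.1 against 2168.4 and 2594.1. The probe set for the 45S ribosomal RNA precursor (RNA45SN5), which exists in near-identical copies, read 2523.2 and 5958.2 against 16007.7 and 25305. The remaining genes of this group of 20 were MTMR11, GBP1, CHST12, RBM43, ARHGAP25, FAM124A, SZRD1, RIN2, RET, PABIR3, WNT6 and PPCDC.

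Among the lower genes of high signal, MYADM, a membrane protein of myeloid cells, read 83090.3 and 87647.7 at 6 h and 36873 and 24113.5 at 9 h, a difference of -1.51 ± 0.34. NCOA7, an oxidation resistance protein, read 108339 and 110288 against 48581.9 and 40698.9. Both genes had 6 h arrays that were nearly equal. TSC22D3, the glucocorticoid-induced leucine zipper, read 14477.8 and 12948.2 against 5520 and 4199.7. CHKA, the choline kinase that starts phosphatidylcholine synthesis, read 3851 and 4266.5 against 1403.7 and 1588.9. HIPK3, a nuclear protein kinase, read 43024.4 and 48414.1 against 18936.7 and 7666.9, with the lowest value on the array with bacterial signal. RABGGTB, the catalytic subunit that adds geranylgeranyl groups to Rab proteins, read 9522.6 and 9842.5 against 4517.8 and 3358.5. STAR, which carries cholesterol into mitochondria, read 2094.7 and 2273.8 against 999.7 and 914.2. The rest were ATP2B3, HMGCS1, SLC6A13, ZNF451, RFX3, DIS3L2, CALU, DANCR, INSIG1, EEIG2, IDI1, FOSB and FAM168B.

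**Figure D3:**
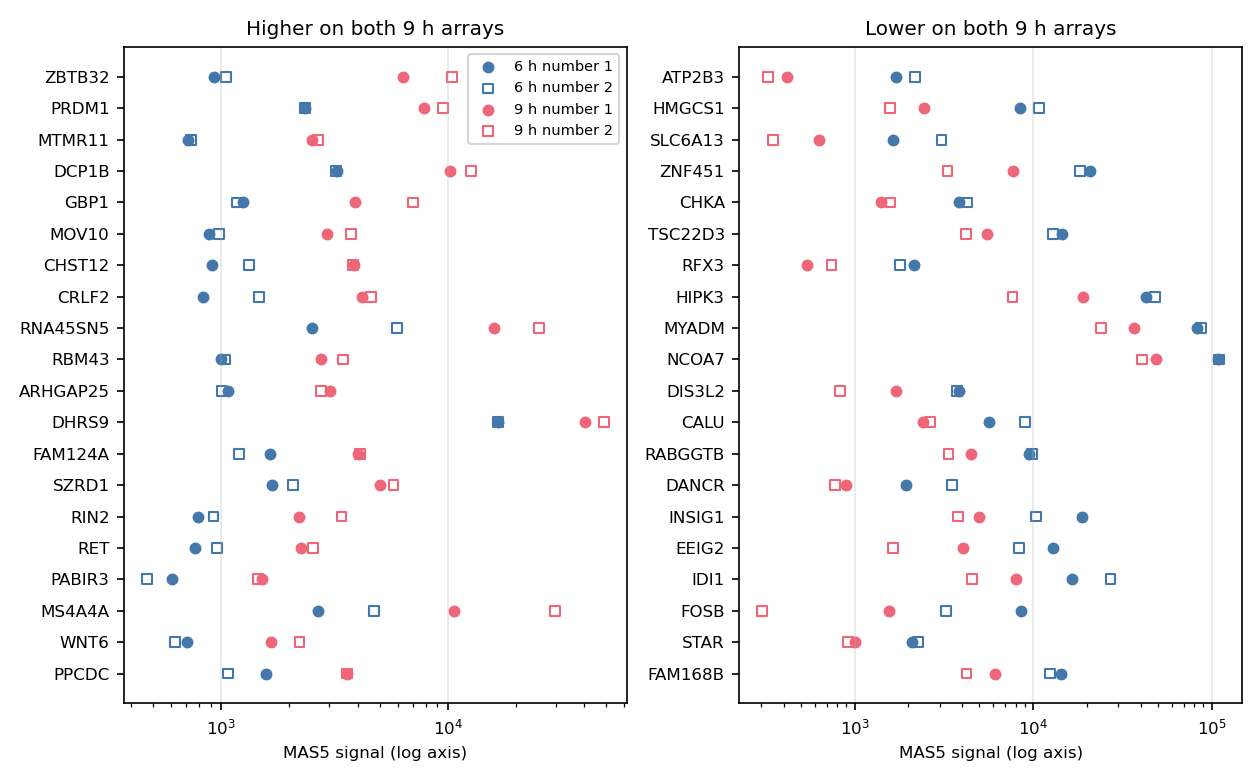
MAS5 signal (log axis) on each of the 4 GFP arrays for the 20 genes per direction with the widest gap among genes of mean log2 value of at least 10. Blue is 6 h and red 9 h, filled circles are number 1 and open squares number 2. ZBTB32 goes from 925.4 and 1048.4 at 6 h to 6313.2 and 10452.6 at 9 h, and ATP2B3 from 1708.3 and 2173.8 to 417.9 and 326.9. No overlap is shown because separation chose the genes.

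The values of the fusion cells are given for the same genes. The gap that ranked the genes used the GFP arrays alone, but the minimum mean was taken over all 12 arrays, and PABIR3 and ATP2B3 would fall under it on the GFP arrays. The fusion arrays are therefore not wholly apart from the choice, and their 9 h arrays of number 2 carry the same bacterial signal. GFP arrays at 9 h also deviated together with the same-numbered fusion arrays, at r = 0.60 for PRWT and 0.63 for PR2VR. Its part in the shared direction was not tested. Over all tested genes the median fusion difference was 0.11. All 20 higher genes had a positive mean difference in the fusion cells, with a median of 1.05 against 1.68 in GFP cells, and 11 separated upward in 4 arrays against 4. All 20 lower genes had a negative one, with a median of -1.24 against -1.60, and 9 separated downward. Over all genes tested, 540 (3.87%) separated upward and 276 (1.98%) downward in the fusion cells. Of the 3519 higher genes of GFP cells, 298 (8.47%) were also among the 540, where they made up 55.2%. Of the 1758 lower genes, 161 (9.16%) were also among the 276, or 58.3%. Genes that separated in opposite directions numbered 16.

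**Figure D4:**
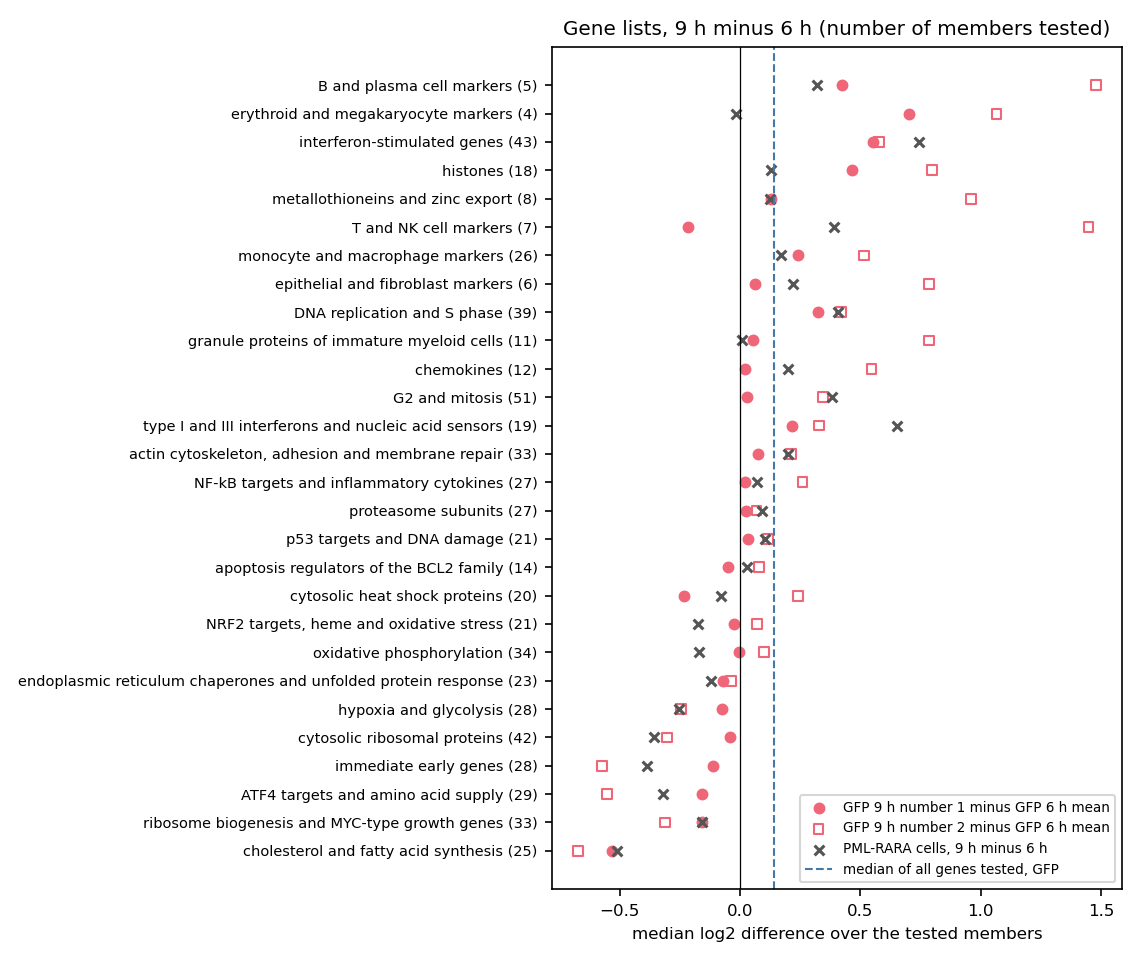
Median log2 difference, 9 h minus 6 h, over the tested members of each of 28 gene lists (x axis). Filled red circles are GFP 9 h number 1 and open red squares GFP 9 h number 2, each against the mean of the 2 GFP 6 h arrays, and grey crosses are the PML-RARA cells. The dashed line is the median of all tested genes in GFP cells (0.14). Both 9 h arrays lie above that line for the interferon-stimulated genes (0.55 and 0.58) and below it for cholesterol synthesis (-0.53 and -0.67).

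The 28 gene lists hold 654 tested members, of which 0 passed the limma test at an adjusted p of 0.05. Interferon-stimulated genes stood highest among the lists with more than 10 tested members, at the level of histones. Of 43 tested members, 21 were higher on both 9 h arrays (48.8%, against 25.2% of all genes) and 1 was lower (2.33%, against 12.6%). The median difference was 0.63, with 0.55 on number 1 and 0.58 on number 2, and it was 0.46 with centred arrays. At an unadjusted p under 0.05 there were 10. IFI27, an interferon-inducible mitochondrial protein, read 127.3 and 189.2 at 6 h and 1022.7 and 1898.3 at 9 h, a difference of 2.74 ± 0.58. IFI44L read 201.3 and 512.9 against 1963.2 and 2318.7, a difference of 2.49 ± 0.56. XAF1, an antagonist of the apoptosis inhibitor XIAP, read 300.7 and 712.6 against 2476.9 and 2653.2. GBP1, a guanylate-binding GTPase, read 1252 and 1176 against 3885.5 and 7013.2. In these 4 genes both 9 h arrays were far above both 6 h arrays. OAS3, which makes the 2-5A signal that activates RNase L, read 3182.6 and 5219.5 against 8160.7 and 19943.2. SP100, a nuclear body protein, read 4047 and 4288.9 against 9197.9 and 10426.1.

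Other members were already high at 6 h and did not separate. IFIT1, which binds viral RNA caps, read 119048 and 136052 at 6 h and 130583 and 125886 at 9 h. ISG15, the ubiquitin-like modifier, read 62777.8 and 138163 against 106648 and 98177.5. IFIT2 read 122406 and 203396 against 136069 and 106850. In each of these 3 the 9 h arrays fell within the 6 h range or overlapped it. Of the 19 members whose lower 6 h signal was at least 10000, 5 were higher and 1 lower, with a median difference of 0.14. Of the 24 below that level, 16 were higher and 0 lower, with a median of 0.96. This division was made after the values were seen, and it uses the same 6 h values as the differences. The 1 lower member was GBP5, at 29445.8 and 20979.6 against 16105.2 and 7473.5. MX1, whose probe set read 373.3 and 610.3 against 141.8 and 430.1, overlapped. The 6 h arrays differed between themselves in this group: 41 of 43 members were higher on number 2 than on number 1, with a median difference of 0.83, where the median of all genes was -0.04. The list median accordingly rested on the choice of 6 h array: it was 0.11 without number 1 of 6 h and 1.02 without number 2 of 6 h, beside medians of all genes of 0.15 and 0.12. Against number 2 of 6 h alone, the list thus did not stand above all genes. The members for IFITM and GBP proteins have close paralogues, which the probe sets may not tell apart.

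**Figure D5:**
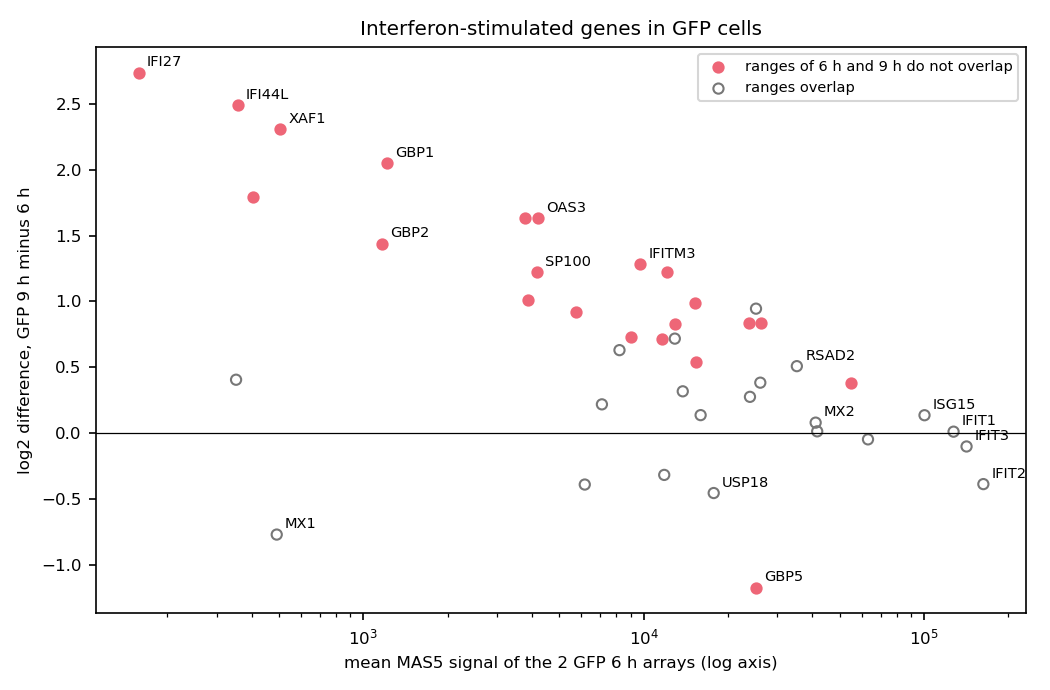
Log2 difference of GFP cells, 9 h minus 6 h (y axis), against the mean signal of the 2 GFP 6 h arrays (x axis, log), for 43 interferon-stimulated genes. Filled points are genes whose ranges do not overlap and open points are the others. IFI27, IFI44L and XAF1 lie at the left with differences of 2.31 to 2.74, and IFIT1, IFIT2 and IFIT3 at the right with differences of -0.39 to 0.01; both axes use the 6 h values.

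The letters of the interferon response element core, AAANNGAAA on either strand, were searched in RefSeq promoter windows (build GRCh38.p14, 250 bases before to 50 after the gene start). They stood in 26 of the 34 interferon-stimulated genes with a window (76.5%), against 7.67% of 11160 tested genes and 10.6% of all 27305 windows. They stood in 13 of the 18 higher members (72.2%) and 13 of the other 16 (81.2%), so the letters did not divide the members by their difference. A match is no proof of a site. Stretches before the start are shown for 4 genes that were higher at 9 h, and then for 3 that were already high at 6 h, with the core on either strand in capitals.
IFI27, chr14:94110617-94110675, plus strand: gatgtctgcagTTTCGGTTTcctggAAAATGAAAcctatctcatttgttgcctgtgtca
IFI44L, chr1:78620351-78620409, plus strand: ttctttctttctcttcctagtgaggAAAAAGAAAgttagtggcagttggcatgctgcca
XAF1, chr17:6755990-6756045, plus strand: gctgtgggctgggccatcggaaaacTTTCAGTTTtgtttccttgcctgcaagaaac
GBP1, chr1:89065302-89065360, minus strand: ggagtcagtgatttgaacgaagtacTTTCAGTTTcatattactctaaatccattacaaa
IFIT1, chr10:89392495-89392553, plus strand: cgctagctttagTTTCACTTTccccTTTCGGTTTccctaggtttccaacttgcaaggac
IFIT3, chr10:89327850-89327908, plus strand: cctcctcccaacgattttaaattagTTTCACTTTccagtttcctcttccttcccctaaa
ISG15, chr1:1013366-1013424, plus strand: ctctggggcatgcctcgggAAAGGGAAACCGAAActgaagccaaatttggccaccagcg

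Of 19 genes for interferons and nucleic acid sensors, 7 were higher (36.8%, against 25.2% of all genes) and 2 lower (10.5%, against 12.6%). With centred arrays 5 were higher and 3 lower. Their median was 0.20 as deposited. The median was 0.21 on number 1, 0.02 with centred arrays and 0.35 without number 1 of 6 h. The ligands differed among themselves. IFNB1, interferon beta, read 7301.2 and 22568.6 at 6 h and 5196.5 and 4233.1 at 9 h, a difference of -1.44 ± 1.34, and the 6 h arrays differed by more than the nearest arrays of the 2 times. IFNL1 overlapped, at 2834.5 and 19089.8 against 7960.4 and 6889.3. IFNL2 was higher, at 19.8 and 345.1 against 581.9 and 599.5, with both 6 h signals in background. RIGI, a sensor of viral RNA, read 21143.8 and 31649.3 against 56364.3 and 57647.9. IRF7, the factor that amplifies interferon alpha, read 4233.7 and 8440.1 against 19229.5 and 15118.7, and DHX58 read 604.9 and 2138.3 against 3045.1 and 4332.6. These 3 were higher on both 9 h arrays. IRF1 was lower, at 14017.1 and 11605.4 against 8734.9 and 3698.4. Of 12 chemokine genes 4 were higher (33.3%, against 25.2% of all genes) and 0 lower (against 12.6%). Their median of 0.26 was 0.02 without number 2 of 9 h and 0.58 without number 2 of 6 h. CCL5 read 16984.2 and 52391.3 against 77980.3 and 84152.1, and CXCL11, a ligand of CXCR3, read 40215.1 and 48682.7 against 71551.8 and 103585.

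Inflammatory targets of NF-kB were mixed. Of 27 tested, 5 were higher (18.5%, against 25.2% of all genes) and 3 lower (11.1%, against 12.6%). With centred arrays 3 were higher and 5 lower. Their median of 0.14 equalled that of all genes. The median was 0.02 on number 1, 0.26 on number 2 and -0.03 with centred arrays. TRAF1, an adaptor of TNF receptors, read 632.1 and 1274.8 at 6 h and 2537.9 and 4847.6 at 9 h. TNF itself read 11381.6 and 18109.8 against 6012.6 and 6503. The cytokine gene was thus lower on both 9 h arrays and the adaptor gene higher. CD40, a receptor of antigen-presenting cells, read 743.2 and 497.5 against 1269.3 and 1711.4, and IL1RN, the antagonist of the interleukin 1 receptor, read 4557 and 9399.8 against 13247.4 and 14365.7.

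Genes of cholesterol and fatty acid synthesis had the lowest median of the 28 lists, -0.55, with -0.53 on number 1 and -0.67 on number 2. With 1 GFP array left out it ran from -0.67 to -0.44. Of 25 tested members, 11 were lower (44%, against 12.6% of all genes) and 4 higher (16%, against 25.2%). With centred arrays 13 were lower and 2 higher. The median signal of the list was 5049.1 and 4842.1 on the 6 h arrays, the level of the class of highest signal. In that class 21% of all genes were lower and 12.7% higher, or 33.6% and 6.71% with centred arrays. The part of signal level in the counts was not tested. HMGCS1 is described above. INSIG1, the sterol-sensing brake on SREBP, read 18846.1 and 10364.9 at 6 h and 5001.6 and 3793.1 at 9 h, a difference of -1.67 ± 0.51. IDI1, the isopentenyl diphosphate isomerase, read 16525.9 and 27156.3 against 8012.2 and 4532.8. SQLE, squalene epoxidase, read 26677.6 and 30465 against 16664.6 and 10536.6. FDPS, which makes farnesyl diphosphate, read 31403.2 and 38330.1 against 20241.9 and 21061.5. The lower enzymes named here thus act at steps from the making of HMG-CoA to squalene epoxidation. The higher members were MVK, ABCG1, TM7SF2 and HSD17B7, of which ABCG1 and TM7SF2 were at background on all 4 arrays. SREBF1 and SREBF2, the genes of the SREBP factors, overlapped.

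The CCAAT letters, on either strand, stood in 17 of the 22 cholesterol genes with a promoter window (77.3%), against 36.5% of tested genes. They stood in 9 of the 10 lower members and 8 of the other 12. Some other lists had such shares too, with 86.4% for the unfolded protein response, 83.3% for histones and 79.1% for G2 and mitosis. The letters were thus not particular to the cholesterol genes. CCAAT is bound by NF-Y, which is known to act with SREBP at such promoters. Stretches before the start are shown for 3 lower genes, with CCAAT on either strand in capitals.
HMGCS1, chr5:43313483-43313537, minus strand: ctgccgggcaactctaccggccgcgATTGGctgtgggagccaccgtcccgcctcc
INSIG1, chr7:155297683-155297737, plus strand: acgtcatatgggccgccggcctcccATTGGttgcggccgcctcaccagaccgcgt
STARD4, chr5:111512636-111512690, minus strand: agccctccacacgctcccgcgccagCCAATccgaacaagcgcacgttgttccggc

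Immediate early genes had a median of -0.25, with -0.11 on number 1 of 9 h and -0.57 on number 2. Of 28 tested members, 11 were lower (39.3%, against 12.6% of all genes and 21% in the class of highest signal) and 2 higher (7.14%, against 25.2%). FOSB, an AP-1 subunit, read 8594 and 3264.7 at 6 h and 1559.5 and 304.1 at 9 h. Its difference was -2.80 ± 1.21, and its arrays spread widely at both times. EGR3 read 1029.2 and 934 against 442.7 and 274, SRF read 9257.7 and 11880.5 against 5424.5 and 4912.2, and JUN read 33392.7 and 18292.5 against 13460.4 and 11676.8. FOS, the best-known member, overlapped, at 1273.6 and 933.7 against 1320.5 and 796.3, and so did ATF3, at 28854.5 and 49518.5 against 35073.7 and 34474.2. RHOB, a small GTPase, was higher, at 135.4 and 154.6 against 289.6 and 519.3, with all but the last signal in background.

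Targets of ATF4, the factor of amino acid shortage, had a median of -0.26 (-0.16 on number 1 and -0.55 on number 2), with 9 of 29 lower (31%) and 2 higher (6.9%). ATF4 itself read 48719.8 and 59934.7 at 6 h and 30068.4 and 26222.3 at 9 h. SLC7A5, a transporter of large neutral amino acids, read 9230.6 and 8690.9 against 5537.6 and 5200.1. PPP1R15A, which recruits the phosphatase of eIF2alpha, read 4951.8 and 6892.3 against 3126.4 and 3191.1. The 2 arrays at 9 h were close to each other in all 3. Of 33 genes of ribosome biogenesis and MYC-type growth, 16 were lower (48.5%, against 12.6% of all genes) and 0 higher. Their median of -0.29 was -0.16 on number 1, that is without number 2 of 9 h, and -0.31 on number 2. The lower members included ODC1, the first enzyme of polyamine synthesis, at 82154.2 and 71120.2 against 35839.8 and 24521.8, and PES1, a factor of large subunit assembly, at 2571.9 and 4330.3 against 1617.2 and 1830.7. The ribosomal protein genes, with a median of -0.18, separated in 1 of 42 members in each direction. That median was -0.04 on number 1, 0.02 after quantile normalization, -0.47 without number 1 of 6 h and 0.10 without number 2 of 6 h. Of 28 hypoxia and glycolysis genes 10 were lower (35.7%) and 2 higher. Their median of -0.14 was -0.07 on number 1, without number 2 of 9 h, and -0.24 on number 2. P4HA1, a collagen prolyl hydroxylase subunit, read 16875.4 and 22995.4 against 12405.6 and 9507.4. On 6 h number 1 the median signal was 5823.1 for the ATF4 targets, 8315.7 for ribosome biogenesis and 10367.5 for hypoxia and glycolysis. These lie in the class of high signal, where 21% of all genes were lower, and the part of signal level in the counts was not tested.

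Genes of DNA replication and S phase went the other way. Of 39 tested members, 17 were higher (43.6%, against 25.2% of all genes) and 1 lower (2.56%, against 12.6%), and the median was 0.36, with 0.32 on number 1 and 0.42 on number 2. None of the 39 had an unadjusted p under 0.05. With centred arrays 10 were higher and 2 lower, and the median was 0.19. The median was 0.58 without number 1 of 6 h and 0.12 without number 2 of 6 h. TK1, thymidine kinase, read 1344.1 and 1099.6 at 6 h and 2051.7 and 2893.4 at 9 h. CDC6, which loads the replicative helicase, read 1086.4 and 1021.3 against 1625.3 and 2476.3. RPA2, a subunit of the single-strand binding protein, read 9964.2 and 10913.8 against 15010.5 and 16363.2. The differences were between 0.58 and 0.97 in these 3 genes. The helicase subunits MCM2, MCM3, MCM6 and MCM7 overlapped. Of 51 genes of G2 and mitosis, 11 were higher (21.6%) and 4 lower (7.84%), neither share above that of all genes (25.2% and 12.6%). With centred arrays 6 were higher and 9 lower. Their median of 0.20 was 0.03 on number 1 and 0.35 on number 2. MKI67, the proliferation antigen, read 6947.6 and 4780.8 against 12399.2 and 10402.2. CKS1B, which binds cyclin-dependent kinases, read 31942.4 and 28640.2 against 17213.5 and 18845.2. Of 18 histone genes 6 were higher (33.3%, against 25.2% of all genes) and 0 lower, and with centred arrays 3 were higher and 1 lower. They had a median of 0.60 (0.47 and 0.80) where the fusion cells had 0.13. It was 0.16 without number 1 of 6 h and 0.89 without number 2 of 6 h. The histone list had a median signal of 412.25 and 565.15 on the 6 h arrays, the level of the class of lowest signal. In that class 35.7% of all genes were higher and the median difference was 0.48, so the share of histones was not above it. Histone genes have near-identical copies that the probe sets may not tell apart.

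The letters TTTGAA, the cell cycle homology region, stood on either strand in 28 of the 43 mitotic genes with a promoter window (65.1%) and in 1 of the 35 S phase genes (2.86%), against 10.5% of tested genes. This divides the 2 cell cycle groups by their promoters and not by the differences of these arrays.

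The stress lists are to be read against the shares of all genes, 25.2% higher and 12.6% lower. Of 20 heat shock genes, a list named cytosolic that also holds the mitochondrial chaperonin HSPD1, 1 was higher (5%) and 4 lower (20%). DNAJB6, a cochaperone of HSP70, read 5859.1 and 8313.8 at 6 h and 3166.8 and 3877 at 9 h, and BAG3, the 1 higher member, read 3570.4 and 3153 against 4412.9 and 5324.5. The median of this list, -0.03, was -0.23 on number 1 and 0.24 on number 2, so its sign depended on the array. Of 23 genes of the unfolded protein response 1 was higher (4.35%) and 2 lower (8.7%), and of 21 NRF2 targets 1 (4.76%) and 3 (14.3%). Of 8 metallothionein and zinc export genes 1 was higher, MT1H, and 1 lower, SLC30A1 (12.5% each). Of 21 p53 targets 6 were higher (28.6%, against 25.2% of all genes) and 1 lower (4.76%, against 12.6%), and with centred arrays 2 were higher and 4 lower. Their median of 0.12 was 0.03 on number 1 and -0.05 with centred arrays. CDKN1A, the cell cycle inhibitor, read 13014.8 and 10439.3 against 14677.9 and 13616.7. Of 14 genes of the BCL2 family 3 were higher (21.4%), BMF, BCL2L11 and BCL2L13, and 2 lower (14.3%). Their median of 0.09 was -0.05 on number 1. BNIP3 was among the lower ones, at 17715.7 and 13561 against 5797 and 9026.4. Of 34 genes of oxidative phosphorylation 4 were higher (11.8%) and 3 lower (8.82%), and of 27 proteasome genes 5 (18.5%) and 3 (11.1%), all below the shares of all genes. With centred arrays the counts were 1 higher and 10 lower, and 2 higher and 5 lower.

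Of 33 genes of the actin cytoskeleton, adhesion and membrane repair 7 were higher (21.2%) and 3 lower (9.09%), both below the shares of all genes (25.2% and 12.6%), and with centred arrays 6 were higher and 6 lower. Single members are given as values. DYSF, dysferlin, which reseals torn membranes, read 1356.5 and 1543.5 at 6 h and 3305 and 3810.5 at 9 h, a difference of 1.26 ± 0.42. CAPN2, the calpain that acts in the same repair, read 23956.6 and 25720.9 against 51645.3 and 40599.9. ARPC2, a subunit of the Arp2/3 complex, was lower, at 66646.1 and 62745.2 against 39141.8 and 37307.9.

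The monocytic label was checked on 13 marker genes, of which 11 are represented by a probe set used here. Of these, 6 were above background on all 4 arrays: LYZ, CSF1R, FCER1G, ELANE, CTSG and SRGN. MPO, the enzyme of promyelocytic granules, read 351.7 and 56.7 against 360 and 582.3, and FCGR1A did not leave background. Of 26 monocyte and macrophage genes 7 were higher (26.9%, against 25.2% of all genes) and 2 lower (7.69%, against 12.6%). The share of higher genes was thus near that of all genes. With centred arrays 5 were higher and 3 lower. The median of the list was 0.42 (0.24 on number 1 and 0.51 on number 2). Without number 1 of 6 h the median was 0.11. FCER1G, the shared signalling chain of Fc receptors, read 1096 and 1075.9 at 6 h and 2218.6 and 4625.2 at 9 h, a difference of 1.51 ± 0.47, where the fusion cells had 0.24. CD36, a scavenger receptor, read 3522.5 and 4733 against 7660.8 and 13629.2, and 1.25 in the fusion cells. HLA-DRA, an antigen-presenting chain, was lower, at 2171.8 and 6699.6 against 567.3 and 1793.8. LYZ overlapped, at 17506.9 and 3303.6 against 7412.7 and 14298.4.

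Of the markers of other cell types, 7 of 16 for T and NK cells, 5 of 12 for B and plasma cells, 4 of 15 for erythroid cells and megakaryocytes and 6 of 15 for epithelial cells and fibroblasts passed the filter on low signal. Their summed signals were 824.5 and 1173.4 at 6 h against 1592.2 and 2510.4 at 9 h for the erythroid list, all 4 of whose tested members were higher. Most of these signals were in background: AHSP, for example, read 191.9 and 287.8 against 433.7 and 445.1, and 35.7% of all genes in the class of lowest signal were higher. They were 6282.2 and 3732.8 against 17892.5 and 10245.7 for B cells, mostly from PAX5, at 4481.1 and 2789.5 against 16215.1 and 6395.9. They were 5542.8 and 7702.2 against 4423.4 and 14843.5 for T and NK cells. None of the tested members was at 0 on all 4 arrays. The part of other cells in the results was not tested. In these bulk samples, fewer cells of a type and less RNA per cell cannot be told apart.

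The time difference of GFP cells was set against the mean time difference of the fusion cells in the same limma fit. For 0 genes did it differ at an adjusted p of 0.05 (0%, smallest adjusted p = 1.00), and 106 genes had an unadjusted p under 0.05. For comparison, 5% of the genes tested is 698. GFP arrays deviated together with the same-numbered PRWT and PR2VR arrays, at r = 0.60 and 0.63 at 9 h. At 6 h r was 0.36 and 0.15. The fit takes the arrays as independent, so the SE of this contrast may be too large. The mean fusion difference averages PRWT and PR2VR arrays of the same time and number, so its SE may instead be too small. With arrays of the same time and number as a random block, 410 genes had an unadjusted p under 0.05, and 0 passed after adjustment. The values below are from the fit without a block. C1RL, a complement-like protease, had the smallest unadjusted p on the higher side. It read 84.5 and 48.5 at 6 h and 571.3 and 1101.2 at 9 h in GFP cells, whereas the fusion arrays lay between 408 and 649.9 at 6 h and between 575.7 and 820.1 at 9 h. The 2 differences were 2.75 ± 0.50 and 0.56 ± 0.35. The 6 h GFP signals were in background, so the offset of 62.5 sets the size of the GFP difference. LINC01723 and LOC101927377 came next, with 2.73 ± 0.54 against 0.43 ± 0.38 and 2.68 ± 0.64 against -0.03 ± 0.45, and both were in background on both 6 h GFP arrays. On the lower side were ZNF850, with -0.42 ± 0.53 against 1.54 ± 0.38, TRIM65, with -0.66 ± 0.50 against 1.18 ± 0.35, and HDAC7, with -1.71 ± 0.71 against 0.65 ± 0.50. In these 3 genes the 9 h GFP signals were in background, and in ZNF850 the 6 h signals were too. GAPDH read 109638 and 139929 at 6 h and 121529 and 85525.5 at 9 h. ACTB read 100087 and 185052 against 141108 and 93058.1, and both overlapped.

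The group medians of the 2 kinds of cells are given side by side. The interferon-stimulated genes had 0.63 in GFP cells and 0.74 in fusion cells, cholesterol synthesis -0.55 and -0.51, S phase 0.36 and 0.41, immediate early genes -0.25 and -0.39, and ribosome biogenesis -0.29 and -0.16. Without the 3 arrays of 9 h number 2, the fusion medians were 0.68, -0.33, 0.31, -0.27 and -0.04. The differences between these medians were not tested.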

How the data were processed

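Total RNA of 12 U937 samples was hybridised to Affymetrix arrays. The deposited intensity values are MAS5 signals, per the submitters' processing notes; version, scaling target and genome build are not given in the sources used here. Their trimmed means (2% off each end) were 1500.2 on every array, so no further scaling was done. Of 54675 probe sets, 41091 had 1 gene symbol, 1801 several and 11721 none (62 are controls). Each of 19775 genes kept 1 probe set, chosen by highest mean log2(signal + 62.5), and 13959 with a mean of at least 7.85 (signal 168.9) were tested. limma 3.58.1 (R 4.3.3) was fitted to 6 group means over 12 arrays, with trended variances and Benjamini-Hochberg adjustment. The number of arrays limits the precision.

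The members and lists were chosen with earlier results of these data known. Genes were named by rule: the 15 widest gaps per direction, up to 4 separated members per list, 3 per direction for the difference between cell types, GAPDH and ACTB. The 20 per direction of high signal, the overlapping members and further list members were named after their values were seen. Alternatives were other offsets, filters, probe set rules, scalings and variance models, blocks and left-out arrays. Of the tested genes, 11160 had a RefSeq promoter.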

Additional observations from a re-analysis of the deposited data

Results flagged for a closer look

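The control probe sets for Lys, Phe, Thr and Trpn lie outside the gene comparisons. Their median signal was 31413.8 on GFP 9 h number 2, 32219.5 on PRWT 9 h number 2 and 15760.8 on PR2VR 9 h number 2, and at most 66.5 on any of the other 9 arrays. The highest single probe set read 121536 on the 3 arrays and 399.1 on the 9. The same 3 arrays had the highest median signals, 387.6 to 435.8 against 238.8 to 292.4, and the lowest GAPDH 3′ to 5′ ratios, 2.21 to 2.75 against 3.82 to 12.9.

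In TRIM65 and ZNF850 the GFP arrays and the fusion arrays separated in opposite directions. The GFP difference minus the fusion difference was -1.84 ± 0.61 (log2) in TRIM65 and -1.97 ± 0.65 in ZNF850, with limma unadjusted p of 0.00994 and 0.00971 and an adjusted p of 1.00 for both. The GFP signals of TRIM65 were 500.8 and 879.2 at 6 h and 425.6 and 373 at 9 h, and those of ZNF850 were 438 and 474 against 350.5 and 299.2. All 4 signals of ZNF850 and both 9 h signals of TRIM65 lay within the range of the bacterial control probe sets on the GFP arrays (4.4 to 477.4). The GFP difference of ZNF850 is thus between signals within background as defined above. In TRIM65 the 6 h signals were above that range and the 9 h signals within it. In the 8 fusion arrays TRIM65 was between 280 and 488.6 at 6 h and between 648.2 and 1433.4 at 9 h.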

How the results depend on the processing

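Under every alternative run, by limma, 0 genes were lower at an adjusted p of 0.05, 0 differed between GFP and fusion cells, and 0 were higher, except 1 with number as a fixed replicate block. That gene was ZBTB32, 2.97 ± 0.36 with an adjusted p of 0.0404 by limma, against 0.828 without the block. With the sets as a random replicate block (correlation 0.41) 0 were called. Same-numbered arrays of GFP cells deviated together across the times at r = 0.18, with only 2 numbers, so the numbers are not taken to pair them. Counts at an unadjusted p under 0.05 ran from 223 to 1160, and for the difference from the fusion cells from 97 to 410, the highest with the sets as a random block.

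Separated genes numbered 5503 to 6589 higher and 3388 to 4240 lower with 1 GFP array left out, which asks fewer arrays to separate, and 5503 and 3673 without the 3 arrays of 9 h number 2. Centring left 2803 lower, and genes of a mean log2 of at least 10, added after the data were seen, gave 1477 higher. Of 1896 values of 159 named genes, 1891 kept their direction. The others were ACTB (-0.25, from -0.69 to 0.20 with 1 GFP array left out, and 0.0522 without 9 h number 2 or its set), CD7 (-0.0215 with an offset of 16) and PSMA5 (-0.15 with the mean of all probe sets), and the cause was not tested. List medians changed sign in 25 of 336 cases, in 11 of the 28 lists.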

Other observations

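Granule protein genes of immature myeloid cells were not described above. Of 11 tested, 3 were higher on both 9 h arrays (27.3%, against 25.2% of all genes) and 0 lower (against 12.6%). The median difference of 0.29 was 0.05 without number 2 of 9 h. MMP9, a gelatinase of neutrophil granules, read 1317.3 and 661.4 at 6 h and 2464.1 and 1657.9 at 9 h. CEBPE, a factor of late granulocyte maturation, read 685.3 and 447.3 against 806.6 and 1464.2. CTSG, cathepsin G, overlapped, at 32564.1 and 113606 against 22410.3 and 55115. The 2 arrays of 6 h differed more in CTSG than the nearest arrays of the 2 times.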
